A study of Mus musculus with 3 samples.

Results

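The genes described here are 57 developmental transcription factors of the Pax, Lhx, Tbx, Nkx, Fox, Gata, Sox and Dlx families and of smaller ones (those of *Six3*, *Otx2*, *Emx1*, *Neurog1*, *Pitx1*, *Gsc* and *Barhl2*), all of which lie outside the Hox clusters. They were given as a list of names and found in the RefSeq annotation of the mm10 genome, in which 21000 genes with a curated transcript served as all genes. The rule itself uses no methylation value. Whole-genome bisulfite shotgun sequencing was performed on spermatogonia, the mitotic male germ cells, of mice at postnatal day 7 (P7). The cells were of the strain C57BL6/J and had been collected by fluorescence-activated cell sorting (FACS) with an antibody against EpCAM, a surface protein of these cells. One library each was analysed for the genotypes WT, *Pld6* KO and *Dnmt3l* KO (written Dnmt3L KO in the labels), 3 libraries in all. Both mutant lines had been backcrossed to C57BL/6J. The study's methods list Pld6+/+, Pld6+/- and Dnmt3l+/- mice together as its WT category, so that the WT library may carry a heterozygous allele. The methods mention biological replicates, but with 1 library per genotype no spread between animals could be measured and no test between genotypes was made. Every interval of a level is a 95% Wilson interval on the calls of a library, and every Fisher's exact test compares 2 libraries.

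The genes chosen encode DNA-binding proteins that set the identity of cells and body regions in the embryo and that are mostly silent in germ cells. Genes of this kind are known to lie in broad, CpG-rich stretches of DNA that escape methylation in most tissues and that are often bound by Polycomb proteins. The male germ line gains its methylation *de novo* in fetal prospermatogonia. DNMT3L is a cofactor without catalytic activity of the *de novo* methyltransferases, and PLD6 is a mitochondrial protein needed to make piRNAs, the small RNAs that guide methylation to some retrotransposons. The comparisons asked how low the promoters of these regulators lie in spermatogonia, how far the low methylation reaches around them, and what the genes look like in the libraries from cells without each factor.

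Calls at CpG sites numbered 43757722 for WT, 64076569 for *Pld6* KO and 19289688 for *Dnmt3l* KO, or 2.0, 2.92 and 0.879 per CpG site of the reference. A share of 0.703 of the WT calls was methylated, beside 0.722 for *Pld6* KO but 0.301 for the *Dnmt3l* KO library, and each level given for a region is likewise the methylated share of its calls. A run of 66 CpG sites in *Pld6* had no call in the *Pld6* KO library, against 163 calls in WT and 65 in *Dnmt3l* KO, and a run of 53 CpG sites in *Dnmt3l* had no call in *Dnmt3l* KO, against 88 and 171 in WT and *Pld6* KO. At the starts of 8 maternally methylated imprinted genes, which are about equally methylated and unmethylated in somatic DNA and unmethylated in male germ cells, the pooled level within 0.5 kb was 0.0412 (0.0319 to 0.0530) in WT, 0.0741 (0.0628 to 0.0872) in *Pld6* KO and 0.0113 (0.00517 to 0.0243) in *Dnmt3l* KO. Among them the start of *Snrpn* had 0.440 of 25 calls methylated in WT and none of 34 in *Pld6* KO. The RefSeq start used for *Snrpn* may lie outside the imprinted region of that gene, so its value may not bear on this check. The part of DNA from other cells in the values of the genes described here was not tested.

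Promoter sequences were read from RefSeq on GRCm38.p6, the assembly that mm10 names, and 43 of the 57 genes had an entry in the sequence table. Each entry is 300 bases long and spans a start. The 3 printed here are those of *Six3*, the gene with the widest unmethylated stretch in WT, of *Lhx3*, the gene with the highest WT promoter level, and of *Pax2*, which shared the lowest WT promoter level. They are written 5′ to 3′ along the gene's own strand, in lower case with every CG dinucleotide, the site that is methylated, in capitals.

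Six3 promoter (chr17:85620584-85620883, plus strand): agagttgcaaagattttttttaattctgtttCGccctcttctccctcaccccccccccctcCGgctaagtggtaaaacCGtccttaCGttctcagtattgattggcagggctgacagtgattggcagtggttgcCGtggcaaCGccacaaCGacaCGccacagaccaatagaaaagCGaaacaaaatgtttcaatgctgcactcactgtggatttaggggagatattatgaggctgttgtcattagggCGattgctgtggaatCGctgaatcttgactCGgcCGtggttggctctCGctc
Lhx3 promoter (chr2:26208200-26208499, minus strand): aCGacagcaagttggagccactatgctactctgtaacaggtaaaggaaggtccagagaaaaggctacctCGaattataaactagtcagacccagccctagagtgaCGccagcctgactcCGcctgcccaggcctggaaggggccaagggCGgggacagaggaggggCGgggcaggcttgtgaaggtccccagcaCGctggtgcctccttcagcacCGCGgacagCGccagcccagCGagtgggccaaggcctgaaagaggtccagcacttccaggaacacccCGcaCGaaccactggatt
Pax2 promoter (chr19:44756656-44756955, plus strand): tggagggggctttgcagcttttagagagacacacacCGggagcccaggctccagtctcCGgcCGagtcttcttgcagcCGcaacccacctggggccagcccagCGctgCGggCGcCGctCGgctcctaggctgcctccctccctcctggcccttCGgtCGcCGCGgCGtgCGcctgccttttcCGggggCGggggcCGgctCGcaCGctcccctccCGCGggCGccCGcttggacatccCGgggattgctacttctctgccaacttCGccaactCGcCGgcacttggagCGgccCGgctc

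The *Six3* stretch holds 14 CG, the *Lhx3* stretch 13 and the *Pax2* stretch 30, and 36.3%, 37.9% and 11.7% of all promoter entries of the same length hold at least as many. The median was 20 CG over the 57 entries of these genes and 7 over all 32851 entries. Within the printed *Six3* bases no call was methylated of 49 in WT, 71 in *Pld6* KO and 17 in the *Dnmt3l* KO library. These counts allow levels of up to 0.0612, 0.0423 and 0.176. The *Pax2* bases likewise had no methylated call of 104 in WT and 176 in *Pld6* KO, which allows up to 0.0288 and 0.0170, while *Dnmt3l* KO had 5 calls there and sets no useful limit. The *Lhx3* bases differed from both, with 16 of 43 calls methylated in WT (0.372, 0.244 to 0.521), 13 of 55 in *Pld6* KO (0.236, 0.144 to 0.363) and none of 23 in *Dnmt3l* KO (up to 0.130).

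The promoters, which reached from -2 kb to +0.5 kb around the start, were almost free of methylation in WT. Their median level was 0.0132 (quartiles 0.00647 and 0.05, n = 57 genes), against 0.103 for all 18467 genes with at least 10 calls in each library and 0.0565 for the 10401 whose promoter is CpG-dense (a stretch of 500 bp with a GC content of at least 55% and a ratio of observed to expected CpG of at least 0.75). A WT level under 0.05 was found at 42 of the 57 promoters, against 28.7% of all promoters and 45.5% of CpG-dense ones. The share was 64.1% for Hox genes and 50% for 78 other genes of the same families. A level under 0.2 was found at 54 of 57, against 67.3% of all, 95.3% of CpG-dense and 94.9% of Hox promoters. In *Pld6* KO 53 of the 57 lay under 0.2, against 63.5% of all and 92.3% of CpG-dense ones. In *Dnmt3l* KO 54 of the 57 lay under 0.05, against 60.7% of all and 83.2% of CpG-dense ones. For counts by function each gene was placed in a single group, although many act in several tissues. *Pax5* and *Pax7* were counted with the nervous system and *Foxf1* with heart and blood, so these counts are rough. The promoters under 0.05 were 21 of the 27 genes of the nervous system and 7 of the 13 of the limbs, skeleton and face. They were also 5 of the 6 of heart and blood, 4 of the 5 of endoderm and 5 of the 6 of kidney and gonad. All 57 promoters passed the filter on calls, with a median of 265 calls in WT, with 327 in *Pld6* KO and 97 in *Dnmt3l* KO.

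**Figure D1:**
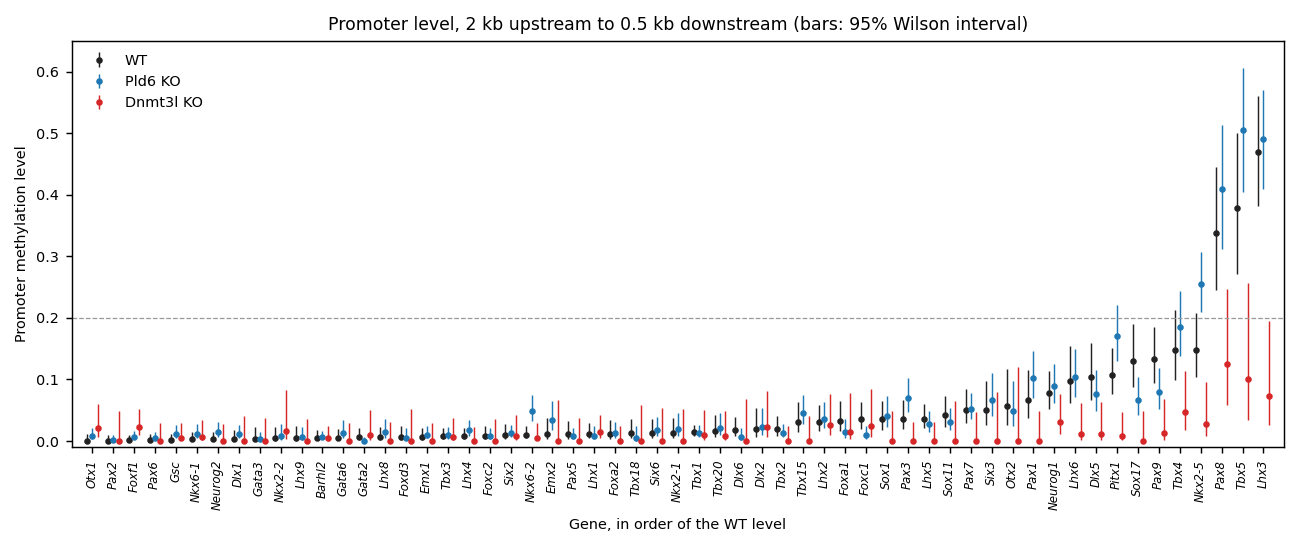
Promoter methylation level of the 57 genes (vertical axis) in order of the WT level, with 1 point per library and bars for the 95% Wilson interval. The dashed line marks 0.2, and in WT 54 of the 57 points lie below it, while *Lhx3*, *Tbx5* and *Pax8* lie above it in WT and *Pld6* KO and below it in *Dnmt3l* KO.

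The 5 lowest WT levels were at or near 0, and their intervals overlapped. *Otx1*, a regulator of forebrain growth, had no methylated call of 319 (up to 0.00940) in WT, 4 of 484 in *Pld6* KO and 3 of 143 in *Dnmt3l* KO. *Pax2*, needed for kidney and optic nerve, had none of 391 (up to 0.00767), 1 of 575 and none of 74. These counts come to a few methylated calls at most, and the intervals of the 3 libraries overlap at both genes. At *Otx1* the 95% Newcombe interval of WT minus *Dnmt3l* KO, -0.0599 to -0.00274, nevertheless left out 0 on the side of a higher level in *Dnmt3l* KO, while the adjusted p was 0.0708 by Fisher's exact test on calls. *Foxf1*, a regulator of lung and gut mesenchyme, had a WT level of 0.00173, *Pax6*, the regulator of eye development, 0.00197, and *Gsc*, a gene of the organizer and of the head, 0.00206. *Pax6* has 4 curated starts spread over 13.6 kb, and the WT level at these starts lay between 0.00197 and 0.00763.

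Methylated promoters were few. *Lhx3*, which specifies the pituitary and motor neurons, had a level of 0.470 in WT (0.382 to 0.560, 117 calls), 0.490 in *Pld6* KO (0.410 to 0.570, 145 calls) and 0.0732 in *Dnmt3l* KO (0.0252 to 0.194, 41 calls). *Tbx5*, the gene of forelimb and heart, had 0.379 (0.272 to 0.499, 66 calls), 0.505 (0.405 to 0.606, 91 calls) and 0.1 (0.0346 to 0.256, 30 calls). *Pax8*, a regulator of thyroid and kidney, had 0.337 (0.245 to 0.444, 83 calls), 0.409 (0.312 to 0.514, 88 calls) and 0.125 (0.0586 to 0.247, 48 calls). At each of these genes the WT and *Pld6* KO intervals overlapped, and at *Lhx3* and *Tbx5* both lay above the *Dnmt3l* KO interval. A pooled level of this kind does not tell whether every cell was partly methylated or some cells or alleles fully.

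All 3 of these promoters belonged to the 11 that are not CpG-dense, whose median WT level was 0.133, against 0.0112 for the 46 CpG-dense ones, none of which reached 0.2. Across the 57 genes the WT promoter level and the number of CpG sites in the promoter had a Pearson's r of -0.625 and a Spearman's rho of -0.691, a description over genes of 1 library that share its depth. The start used also mattered. *Lhx3* has a second curated start 1.674 kb downstream, within 98 CpG sites in place of 34, and the promoter there had 0.132 in WT, 0.146 in *Pld6* KO but 0.00565 in *Dnmt3l* KO. *Tbx4*, a gene of the hindlimb, ranged from 0.148 at the start used to 0.0202 at its other start, 10.4 kb away.

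In *Dnmt3l* KO the promoters, already low in WT, were lower still. Their pooled level was 0.0300 in WT (0.0275 to 0.0327, 16460 calls) and 0.00925 in *Dnmt3l* KO (0.00711 to 0.0120, 5946 calls), and the ratio of 0.308 compares with 0.396 over all promoters and 0.366 over CpG-dense ones. By value, 48 of 57 promoters were lower than in WT, 1 was equal and 8 were higher, against 90.9% lower over all promoters. No methylated call at all was seen at 30 of the 57, or 52.6%, against 21.3% of all promoters. Fewer than 100 calls in this library were found at 29 of the 57 and at 13862 of all 18467 promoters, with medians of 97 and 66 calls. A decrease of at least 0.3 occurred at 1 of 57, *Lhx3*, against 20.3% of all promoters and 0.269% of CpG-dense ones. In WT only *Lhx3*, *Tbx5* and *Pax8* had a level of at least 0.3, so no other promoter of the 57 could fall that far.

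Fisher's exact test on calls was two-sided, with Benjamini-Hochberg adjustment over all promoters. Promoters near 0 in WT had little room to be called lower. The test placed 10 of the 57 lower in *Dnmt3l* KO, against 37.9% of all promoters and 20.5% of CpG-dense ones. The largest differences were 0.397 at *Lhx3* (95% Newcombe interval 0.247 to 0.499, adjusted p = 1.87e-05 by Fisher's exact test), 0.279 at *Tbx5* (0.0893 to 0.416, adjusted p = 0.0220) and 0.212 at *Pax8* (0.0592 to 0.338, adjusted p = 0.0236). The other 7 were *Sox17*, which specifies endoderm, *Nkx2-5*, the early heart gene, *Pax9*, needed for teeth and thymus, *Tbx4* and *Pitx1*, which pattern the hindlimb, *Dlx5*, a gene of jaw and limb skeleton, and *Lhx6*, a gene of cortical interneurons. Their differences ran from 0.130 at *Sox17* down to 0.0867 at *Lhx6*. Limb, skeleton and face supplied 5 of the 10 from 13 genes, and the nervous system 2 from 27.

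At *Sox17* and *Nkx2-5* the WT methylation lay upstream of the start itself, whereas at *Lhx3* the printed bases around the start held it too. In *Sox17* the step from 2 to 1 kb upstream had a level of 0.512 of 43 calls in WT, 0.425 of 40 in *Pld6* KO and none of 15 in *Dnmt3l* KO. The next step, which ends at the *Sox17* start, had no methylated call of 74 in WT. *Nkx2-5* had the same order of steps, with 0.510 of 49 calls in WT, 0.753 of 93 in *Pld6* KO and 0.0400 of 25 in *Dnmt3l* KO in the step from 2 to 1 kb upstream, and 0.05 of 40 calls in WT in the step up to the start. With the promoter narrowed to 0.5 kb on each side, or to 1 kb on each side, only *Lhx3* passed the test of the 57.

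Only *Foxf1* was higher in *Dnmt3l* KO by the test, against 0.0975% of all promoters. It had 1 methylated call of 578 in WT, 5 of 712 in *Pld6* KO and 5 of 222 in *Dnmt3l* KO (0.0225, 0.00966 to 0.0516, adjusted p = 0.0232 by Fisher's exact test on calls). Within 1 kb on each side the direction of this difference turned, to 0.000216 lower in *Dnmt3l* KO.

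In *Pld6* KO the promoters stood close to those of WT. The pooled level was 0.0366 (0.0341 to 0.0393), or 1.22 times that of WT, against 1.23 times over all promoters, and 39 of the 57 were higher and 18 lower by value, against 62.6% higher over all. No promoter of the 57 differed by 0.3 in either direction, against 0.255% lower and 0.384% higher over all promoters. None was lower by Fisher's exact test on calls after adjustment, against 1.03% of all, and 2, *Foxc1* and *Sox17*, had an unadjusted p under 0.05. The largest decreases by value were 0.0632 at *Sox17*, 0.0537 at *Pax9* and 0.0283 at *Dlx5*, none of which was called. The largest increases by value were seen at *Tbx5*, from 0.379 to 0.505 (adjusted p = 0.447 by Fisher's exact test on calls), and at *Nkx2-5*, from 0.148 to 0.255 (WT minus *Pld6* KO -0.106, 95% Newcombe interval -0.174 to -0.0322, adjusted p = 0.0733 by Fisher's exact test), which placed *Nkx2-5* above 0.2 in *Pld6* KO. An unadjusted p under 0.05 in the higher direction was found at 3 promoters, *Nkx2-5*, *Nkx6-2* and *Pitx1*. One promoter was higher after adjustment, against 5.77% of all, namely that of *Nkx6-2*, a gene of motor neurons and of myelin-forming glia, with 5 methylated calls of 491 in WT, 21 of 426 in *Pld6* KO and 1 of 186 in *Dnmt3l* KO (adjusted p = 0.0138 by Fisher's exact test for WT with *Pld6* KO). Its 3 levels, 0.0102, 0.0493 and 0.00538, all stayed below 0.05.

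The low methylation reached well beyond the promoters. Pooled over the 57 genes in WT, the level was 0.0103 in the first 1 kb downstream of the start, 0.158 in the step from 4 to 5 kb and 0.658 in the step from 19 to 20 kb. Upstream it was 0.0180 in the step next to the start, 0.142 from 5 to 4 kb and 0.640 from 20 to 19 kb. Around the CpG-dense promoters of all genes the recovery was much sharper, with 0.0159 in the first 1 kb, 0.682 from 2 to 3 kb and 0.751 from 4 to 5 kb downstream. In *Pld6* KO the pooled levels of the 57 genes ran slightly above WT in most steps, with 0.191 from 4 to 5 kb and 0.716 from 19 to 20 kb. In *Dnmt3l* KO they ran below WT throughout, with 0.00586 in the first 1 kb, 0.0392 from 4 to 5 kb and 0.304 from 19 to 20 kb.

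**Figure D2:**
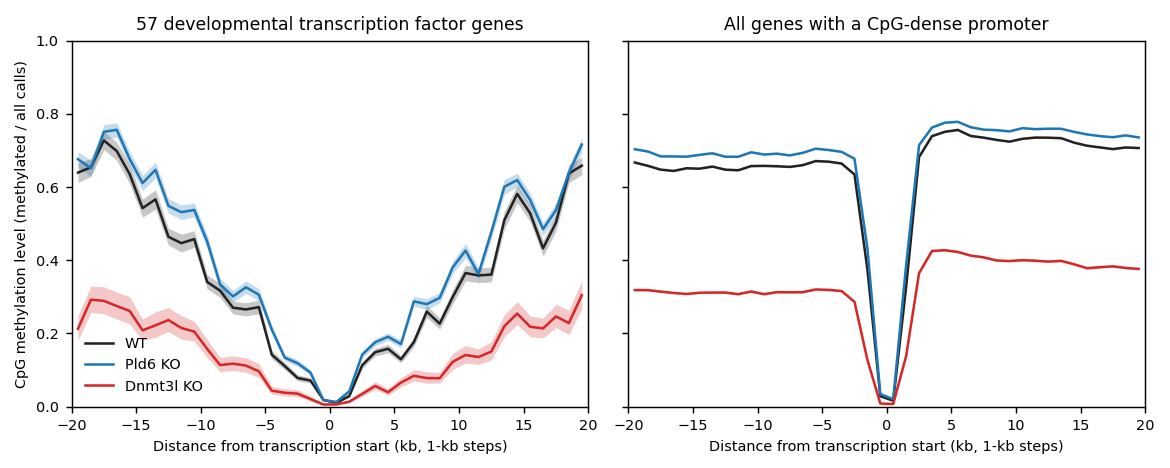
Pooled methylation level (vertical axis) in 1-kb steps to 20 kb on each side of the start, for the 57 genes (left) and for all genes with a CpG-dense promoter (right), with 1 line per library and shading for the 95% Wilson interval. The low stretch of the 57 genes widens gradually, so that WT is still at 0.158 from 4 to 5 kb downstream, where the CpG-dense promoters of all genes are at 0.751.

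The width of the unmethylated valley was counted for each gene as the number of 1-kb steps on both sides of the start, up to 20 kb on each, before a step with at least 5 calls reached a level of 0.2. In WT the median width of the 57 genes was 6 kb (quartiles 5 and 7 kb, range 0 to 15 kb), against 2 kb for all genes, 2 kb for CpG-dense promoters, 5 kb for the 39 Hox genes and 3 kb for the 78 other genes of the same families with enough calls. A width of at least 5 kb was reached by 43 of the 57, against 3.92% of all genes. At least 10 kb was reached by 8, against 0.282% of all genes. By role, the WT medians were 7 kb for endoderm and 6 kb for each of the other 4 groups.

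The widest WT valley was that of *Six3*, a gene of forebrain and eye, with 15 kb in WT, 15 kb in *Pld6* KO and 19 kb in *Dnmt3l* KO. Its steps in WT stayed at or below 0.182 from 9 kb upstream to 6 kb downstream and then stood at 0.632, 0.741 and 0.870 in the 3 steps from 6 to 9 kb, where *Dnmt3l* KO had 0.167, 0.167 and 0.0625 of 6 to 16 calls. *Nkx2-2*, which acts in the ventral neural tube and pancreas, followed with 14, 6 and 24 kb. The narrower value of *Nkx2-2* in *Pld6* KO came from 1 step, 3 to 2 kb upstream, with 0.204 of 49 calls against 0.0882 of 34 in WT. *Nkx6-1*, a gene of motor neurons and pancreatic beta cells, had 13, 12 and 14 kb, *Otx1* 13, 13 and 23 kb, and *Foxc1*, a gene of the eye and skull, 12, 12 and 21 kb.

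The narrowest values included genes whose start lies beside, not within, the unmethylated stretch. *Lhx3* had 0 kb in WT and *Pld6* KO and 8 kb in *Dnmt3l* KO, since both steps at the *Lhx3* start were above 0.4 in WT. The step from 1 to 2 kb downstream, at its other start, had no methylated call of 210 in WT. *Otx2*, required for the anterior brain, had 1 kb in WT, 10 kb in *Pld6* KO and 32 kb in *Dnmt3l* KO. In WT the *Otx2* step next to the start upstream had 0.231 of 13 calls, while the steps from 7 to 1 kb upstream had levels of 0 to 0.150, so that a thinly covered step cut the count. *Neurog1*, a gene of sensory neurons, *Lhx2*, of eye and forebrain, *Pax8*, *Sox17* and *Tbx5* had 3 kb each.

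**Figure D3:**
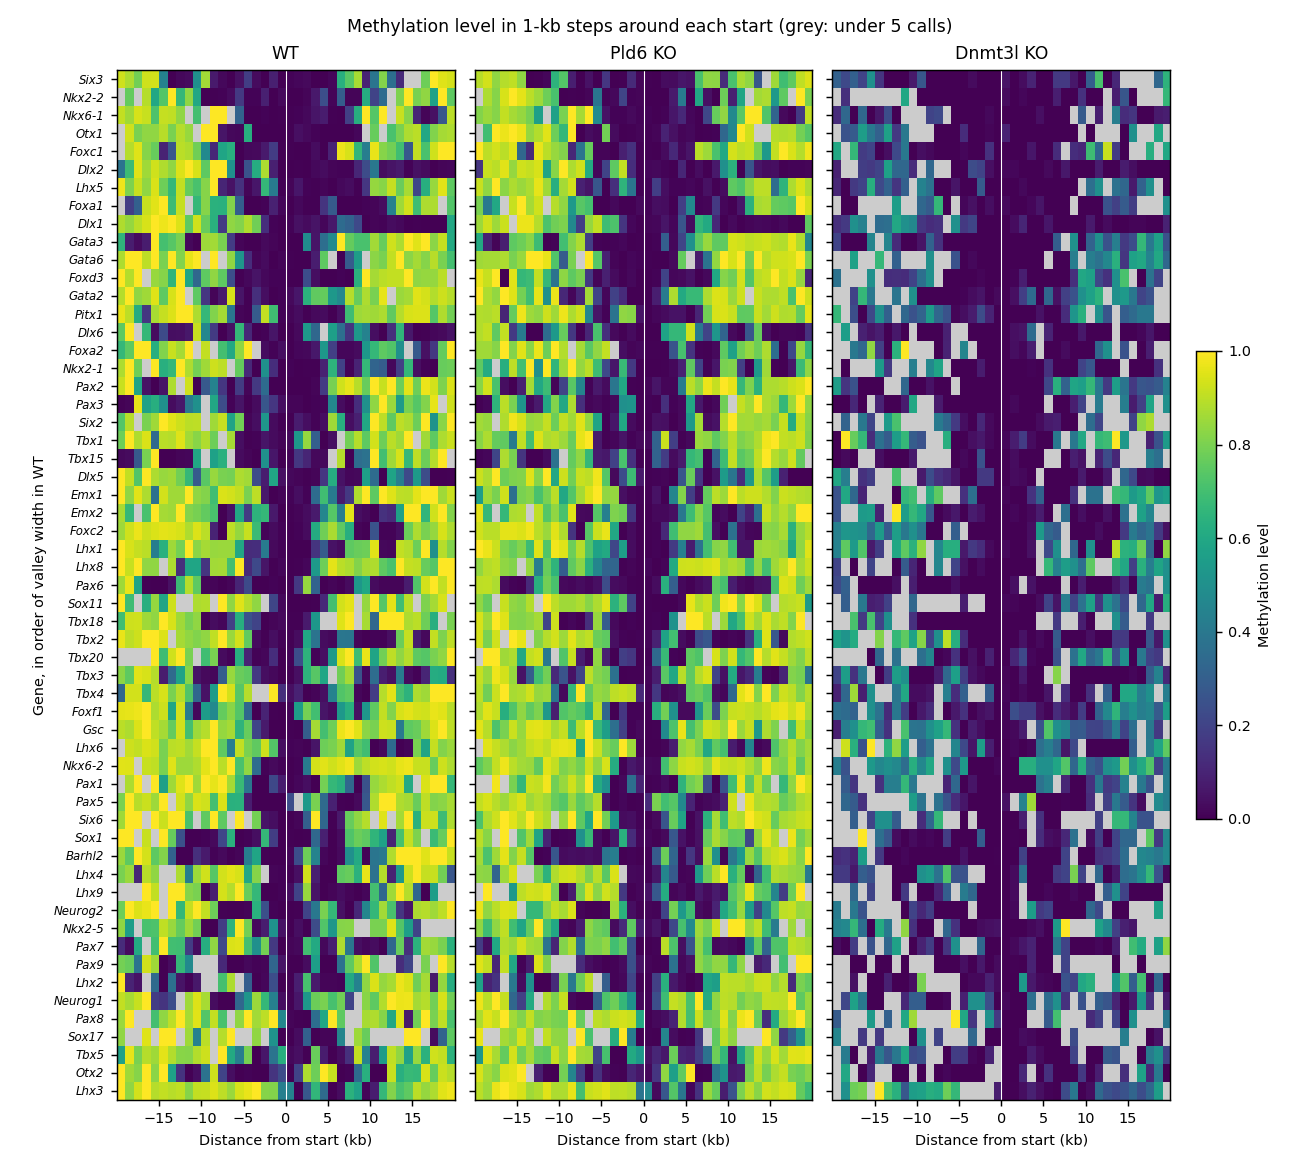
Methylation level (colour scale, 0 to 1) in 1-kb steps to 20 kb on each side of the start, with 1 row per gene in order of the WT valley width and 1 panel per library, and grey for steps with fewer than 5 calls. Dark steps around the start form valleys with a median of 6 kb in WT and *Pld6* KO and 13 kb in *Dnmt3l* KO, and further dark stretches stand apart from the start in genes such as *Pax6* and *Otx2*.

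Many genes had further unmethylated stretches cut off from the start. Counting every step under 0.2 within 20 kb, the 57 genes had a median of 13 low steps of 38 measured in WT, 12 of 39 in *Pld6* KO and 20 of 32 in *Dnmt3l* KO. The medians over all genes were 3, 3 and 8. The Hox genes had 23, 20 and 32, and the other genes of the same families 6, 6 and 13. *Dlx6* and *Pax6* had 24 low steps each in WT, *Dlx2* 21, and *Dlx1* and *Six3* 20 each, while *Otx2* had 14 despite its valley of 1 kb and *Lhx3* had 5. *Dlx1* and *Dlx2*, which act together in forebrain interneurons, start 17.3 kb apart, *Dlx5* and *Dlx6* 18.7 kb and *Foxc2* and *Foxf1* 31.8 kb, so that these pairs share steps and are not independent.

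*Pax6* shows how such stretches came to be counted as 1 valley in *Dnmt3l* KO. Its valley was 6 kb in WT and *Pld6* KO and 33 kb in *Dnmt3l* KO. In WT the *Pax6* valley was cut upstream by a step with 0.226 of 62 calls, from 5 to 4 kb, and downstream by a step with 0.842 of 19 calls, from 2 to 3 kb. The first of these had no methylated call of 24 in *Dnmt3l* KO, and the second had 4 calls there, under the minimum of 5, and was bridged. The 16 kb counted downstream of the *Pax6* start in this library thus pass over a step that was not measured.

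In *Dnmt3l* KO the valleys were wider almost throughout. Their median was 13 kb (quartiles 9 and 17 kb, range 4 to 33 kb), 55 of the 57 were wider than in WT and 2, *Lhx4* at 4 kb and *Lhx5* at 11 kb, had the same width. Over all genes the median went from 2 kb in WT to 3 kb and 64.0% were wider. At least 5 kb was reached by 54 of the 57, against 27.8% of all genes, and at least 10 kb by 41, against 8.31%. The Hox genes had a median of 22 kb in this library and the other genes of the same families 6 kb. The search stopped at 20 kb on each side, and 19 of the 39 Hox valleys and 3 of the 57, those of *Dlx1*, *Dlx2* and *Pax9*, met no step at or above 0.2 before this limit on at least 1 side in *Dnmt3l* KO, so that these widths are cut off. A fixed level of 0.2 is easier to stay under in a library whose overall level is 0.301. With the limit set for each gene at 0.5 times its own flank level in the same library, the medians were 6, 6 and 10 kb, and 42 of the 57 valleys were wider in *Dnmt3l* KO, 10 equal and 5 narrower, against 49.1% wider over all genes. This library also had the fewest measured steps. Where a step with too few calls ended the valley, its median was 10 kb, against 3 kb over all genes. In that setting 51 of the 57 were wider than in WT, against 55.5% of all genes. In *Pld6* KO the median was 6 kb, 43 valleys were at least 5 kb wide, against 3.28% of all genes, and 8 at least 10 kb, against 0.271%. Of these valleys 39 had the WT width, 6 were wider and 12 narrower, 53 of them within 1 kb of WT. Over all genes 6.87% were wider. With a step level of 0.1 in place of 0.2, 30 were equal, 6 wider and 21 narrower, and 57.9% were at least 5 kb wide, against 70.2% in WT. Over all genes the share of at least 5 kb at this level was also lower, 1.94% in *Pld6* KO against 2.32% in WT, and 7.35% were wider.

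Just outside the valleys the levels were intermediate. In the 3 steps beyond each edge, with the edge set in *Pld6* KO so that the values of WT and *Dnmt3l* KO did not choose it, 56 genes gave a pooled level of 0.288 (0.281 to 0.296) in WT and 0.0995 (0.0922 to 0.107) in *Dnmt3l* KO. The ratio of *Dnmt3l* KO to WT there was 0.345, against 0.421 in the flanks of the same genes. It was below the gene's own flank ratio in 35 of 56 genes, or 62.5%, against 57.4% of all genes. That share was higher still in Hox genes (71.1% of 38) and in the other genes of the same families (77.6% of 67). In the flanks, 10 to 20 kb from the start, the median levels were 0.642 in WT, 0.714 in *Pld6* KO but 0.235 in *Dnmt3l* KO, against 0.792, 0.794 and 0.321 over all genes.

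The gene bodies, from 0.5 kb downstream of the start to the end of the transcript, were also low. Their median level in WT was 0.124 (n = 57), against 0.801 over 18668 genes. A WT level under 0.2 was found at 35 of the 57, against 5.8% of all gene bodies. The 39 Hox genes had a median of 0.0773 with 94.9% under 0.2, and 82 other genes of the same families 0.278 with 45.1%. In *Pld6* KO 33 of the 57 lay under 0.2, against 4.91% of all, and in *Dnmt3l* KO 48, against 20.5%. The lowest were *Foxd3*, a gene of the neural crest, with no methylated call of 458 (up to 0.00655), *Neurog1* with none of 144 (up to 0.0208), *Dlx2* with 0.00248, *Nkx6-2* with 0.00332 and *Gsc* with 0.00394. All 5 are short genes, with 1.08 to 2.85 kb of body next to the start. The highest were *Pax5*, the B cell regulator, with 0.692, *Pax7*, of muscle stem cells, with 0.632, *Pax3*, of neural crest and muscle, with 0.602, *Tbx15*, of skeleton and skin, with 0.597 and *Pax8* with 0.587, all of them over 50 kb long.

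Body level followed length and position. Over the 57 genes the WT body level and the log10 of the body length had a Pearson's r of 0.854 and a Spearman's rho of 0.849, given as a description. The 23 bodies under 5 kb had a median of 0.0156 in WT, against 0.517 for all genes of that length, the 17 of 5 to 20 kb 0.122 against 0.767, and the 17 over 20 kb 0.465 against 0.832. Within 10 kb of the start the pooled body level of the 57 genes was 0.0989 in WT, 0.130 in *Pld6* KO but 0.0360 in *Dnmt3l* KO, against 0.595, 0.640 and 0.306 over all genes. Beyond 10 kb, where 21 of the 57 genes reach, it was 0.739, 0.759 and 0.355, against 0.835, 0.837 and 0.421 over all genes.

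**Figure D4:**
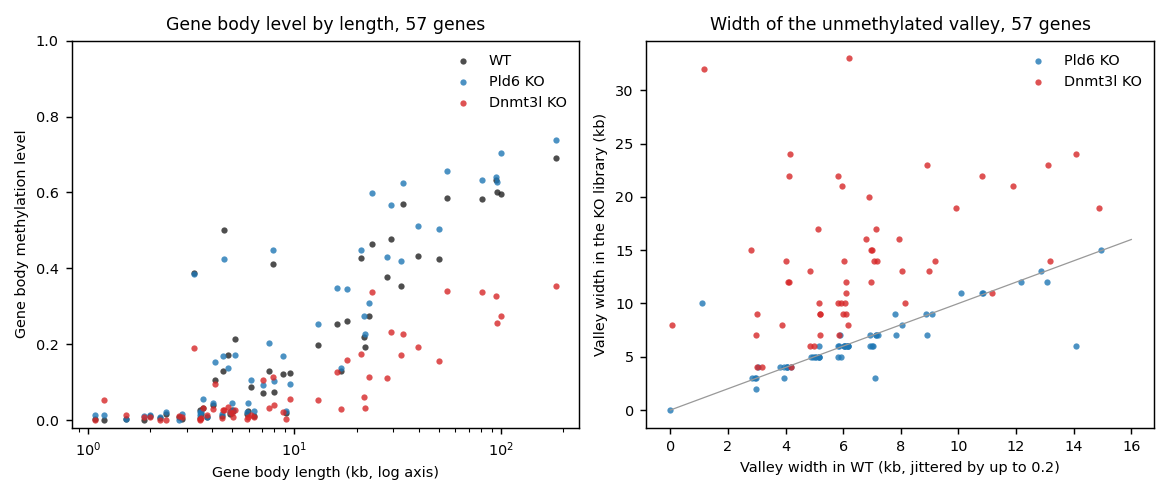
Left, gene body methylation level (vertical axis) against body length in kb (log axis) for the 57 genes in the 3 libraries, in which bodies over 20 kb have a median of 0.465 in WT and 0.227 in *Dnmt3l* KO. Right, valley width in each KO library against the width in WT in kb with 1 point per gene, where the grey line marks equal widths and 55 of the 57 *Dnmt3l* KO points lie above it.

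In *Dnmt3l* KO the pooled body level was 0.171, against 0.350 in WT, a ratio of 0.490 beside 0.507 over all genes. By Fisher's exact test on calls, adjusted over all gene bodies, 33 of the 57 were lower, against 93.7% of all bodies. In WT 35 of the 57 already lay under 0.2, so these had less room to be called lower and could not fall by 0.3. A decrease of at least 0.3 was seen at 6, namely *Otx2*, *Pax3*, *Tbx20*, *Pax5*, *Tbx15* and *Pax7*, against 69.8% of all. The *Otx2* body had the largest, from 0.5 of 124 calls in WT and 0.425 of 179 in *Pld6* KO to 0.0270 of 74 in *Dnmt3l* KO (difference 0.473, 0.364 to 0.562, adjusted p = 1.68e-13 by Fisher's exact test). The *Tbx20* body, of a gene of the heart chambers, had 0.571, 0.626 and 0.227. One body was higher, that of *Neurog1*, against 0.0321% of all, with none of 144 calls in WT, 2 of 165 in *Pld6* KO and 3 of 57 in *Dnmt3l* KO (adjusted p = 0.0237 by Fisher's exact test).

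In *Pld6* KO the bodies were slightly higher by value. The pooled level was 0.411, or 1.17 times that of WT, against 1.02 times over all genes, and 48 of the 57 were higher by value, against 57.5% of all. This ratio depends on how sites are weighted, and as a mean of site levels the 2 libraries lay closer together (values in the last section). From 0 to 1 kb downstream *Pld6* KO had 12480 calls against 10520 in WT, and from 19 to 20 kb 2097 against 1467. Pooled *Pld6* KO calls thus give distant steps more weight. The part of this weighting in the bodies called higher was not tested. Fisher's exact test on calls placed 15 higher, against 12.9% of all bodies, and none lower, against 4.93%. The body of *Tbx1* had an unadjusted p under 0.05 in the lower direction. The largest increases were at *Lhx8*, a gene of cholinergic forebrain neurons, from 0.465 to 0.599 (adjusted p = 5.80e-07 by Fisher's exact test), and at *Tbx15*, from 0.597 to 0.704 (adjusted p = 5.72e-10). None of the 57 bodies differed by 0.3 between these libraries, against 0.075% lower and 0.155% higher by that much over all genes. With the WT and *Pld6* KO libraries at 2.0 and 2.92 calls per CpG site and 1 library of each, differences of this size cannot be told apart from differences between animals or library preparations. The pooled level at the maternally methylated imprinted starts also differed, 0.0412 in WT against 0.0741 in *Pld6* KO. The part of DNA from other cells in these body differences was not tested.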

How the data were processed

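The authors prepared libraries from genomic DNA of sorted P7 spermatogonia by post-bisulfite adaptor tagging (PBAT), sequenced them as single-end reads and mapped the trimmed reads to mm10 with Bismark, whose version is not given in the sources used here. No removal of duplicate reads is stated. The deposited lists give, per covered CpG site, 2 counts made by the authors (methylated and unmethylated calls) and a level, which the authors wrote as a fraction. At all sites this fraction was the methylated count over the sum of both. All per-sample columns were used (0 unused).

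Levels were computed from the counts, pooled over the sites of a region, with Python 3.11.15, numpy 2.4.6, scipy 1.17.1, pandas 2.3.3 and matplotlib 3.10.9. The start was that of the lowest-numbered curated RefSeq transcript. Promoters and gene bodies needed at least 10 calls in each library, and 1-kb steps at least 5. Steps with fewer calls were bridged. Differences have a 95% Newcombe interval, and Fisher's exact test on calls was two-sided with Benjamini-Hochberg adjustment (threshold 0.05) over all promoters or bodies. A count of 0 was given with the level that 3 calls would show. Calls of the same read are linked and PCR copies may remain, so that intervals cover counting error only and p-values may be too small. The scripts were tested on simulated data.

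The 57 genes and the comparison lists were chosen with earlier results of these data known. In detail were named the 5 widest and 5 narrowest WT valleys, every WT promoter level of 0.2 or more, the 5 lowest WT promoter levels with at least 50 calls in each library, the 3 largest promoter decreases in each KO with at least 20 calls, and the 5 highest and 5 lowest WT body levels, with ties by symbol. Further genes were named after their values were seen, as those called by a test or as examples. Alternatives changed the start, the windows, the call minimums, the sites used, the thresholds and the test.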

Additional observations from a re-analysis of the deposited data

How the results depend on the processing

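The number of promoters under 0.2 in WT and the median valley widths of the 57 genes stayed within 1.5 times their values under every alternative run. The number of valleys narrower in *Pld6* KO than in WT, 12 at a step level of 0.2, was 21 at 0.1, and the number wider, 6, was 12 with the limit at 0.5 times the flank level. The shares wider over all genes were 6.87% at 0.2 and 7.54% at 0.5 times the flank level. The pooled promoter level moved with the window. With the start at the 5′ end of the gene record it was 0.0422 in WT, 0.0520 in *Pld6* KO but 0.0137 in *Dnmt3l* KO. There 2 promoters were lower by 0.3. Within 0.5 kb on each side it was 0.00898, 0.0120 and 0.00421, with 1 promoter lower and 0 higher in *Dnmt3l* KO by the test and 0 higher in *Pld6* KO. Within 1 kb on each side it was 0.0130, 0.0146 and 0.00573, again with 1, 0 and 0. With at least 50 calls it was 0.0234 in WT and 0.0290 in *Pld6* KO, with 0 promoters lower by 0.3 and 6 lower by the test, fewer promoters being tested. With sites at least 100 bp apart, so that fewer calls share a read, it was 0.0740, 0.0843 and 0.0216, with 4 promoters lower by 0.3, 3 lower and 0 higher in *Dnmt3l* KO and 0 higher in *Pld6* KO by the test. As a mean of site levels it was 0.0330 in *Pld6* KO. A decrease of at least 0.2 was seen at 3 promoters in *Dnmt3l* KO and one of at least 0.1 at 7. By the Newcombe interval without adjustment, 2 promoters (*Foxf1* and *Otx1*) were higher in *Dnmt3l* KO, 2 lower and 3 higher in *Pld6* KO. The differences of single genes between WT and *Dnmt3l* KO turned at *Pax9* (-0.00194 with the gene record and -0.0141 within 0.5 kb), *Nkx2-5* (-0.0238 within 0.5 kb and -0.00336 within 1 kb) and *Foxf1* (0.000216 within 1 kb). The pooled body level from 2 kb on was 0.447, 0.507 and 0.213 in the same order, with 11 bodies lower by 0.3, and as a mean of site levels 0.381, 0.396 and 0.178. The pooled flank level was 0.597, 0.631 and 0.250 from 15 to 20 kb, and 0.576, 0.626 and 0.240 without steps within 5 kb of another gene start. The level just outside the valleys, an addition made after the data were seen as were the other starts, the split of bodies at 10 kb and the count of low steps anywhere, was 0.299 in WT with the edge set in WT, and 0.225 in WT and 0.0802 in *Dnmt3l* KO with the edge at 0.1. Of 449 WT promoter levels of single genes under the alternatives, 319 stayed within their interval, and of 92 called differences 56 stayed called in the same direction. Where not stated, the cause of a change was not tested. Depth limits the *Dnmt3l* KO library most, in which 0 methylated calls of the median of 97 per promoter allow a level of about 0.03. No paired analysis was possible because each genotype was represented by 1 library.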
